A study of Mus musculus with 6 samples.

Results

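The 10 heat shock genes described here were taken by name, by a rule that uses no measured value but was written with earlier results of these data known, and encode the main inducible and constitutive chaperones of the cytosol and the chaperonin pair of mitochondria. The 10 members are Hspa1a, Hspa1b, Hsph1, Dnajb1, Hspa8, Hsp90aa1, Hsp90ab1, Hspb1, Hspe1 and Hspd1. All 10 were found among the 49315 genes in the deposited count tables, and all 10 passed the filter on low counts that left 17185 genes for testing. The libraries were made from mouse cerebral cortex, 3 from the shFabp7-LPS group and 3 from the shScr-LPS group. Wild type mice of the shFabp7-LPS group received AAV-PHP.eB-Gfap-GFP-shFABP7 and those of the shScr-LPS group AAV-PHP.eB-Gfap-GFP-shScr, a non-silencing scrambled shRNA, through the retro-orbital route at 21 days of age. Mice of both groups were given LPS (lipopolysaccharide, an endotoxin of Gram-negative bacteria that causes systemic inflammation) at 1 mg/kg in 3 weekly injections from 4 months of age, and tissue was collected 24 h after the last of them. No library came from mice without LPS or without vector, so the response of these genes to LPS itself was not measured. The Gfap promoter directs the shRNA to astrocytes, while the RNA was from whole cortex and sums all its cell types, so that fewer cells of a type and less RNA per cell cannot be told apart.

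Heat shock proteins are molecular chaperones that hold, fold or refold other proteins and are among the most abundant proteins of neurons and glia. When unfolded proteins accumulate, heat shock factor 1 is released from chaperones, binds repeats of the motif GAA and its inverse TTC in promoters, and raises transcription of Hsp70, Hsp40, Hsp110, Hsp90 and small heat shock protein genes. In mitochondria, Hsp60 forms a folding chamber that is closed by the Hsp10 lid.

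Promoter sequences are shown for the genes whose values are set side by side below, the near-identical Hspa1a and Hspa1b and the head-to-head pair of Hspe1 and Hspd1, and for Hsph1, the member with the smallest p. RefSeq promoter windows on GRCm38.p6, from 250 bases before to 50 bases after a start site, were at hand for 7 of the 10 members. They were searched for GAANNTTC and TTCNNGAA, pairs of heat shock factor units, each of which reads the same on both strands, and for the triples GAANNTTCNNGAA and TTCNNGAANNTTC. A triple always holds both kinds of pair, overlapping by the middle unit. A pair was present in 7 of the 10 windows of these members, which covered 6 of the 7 members, against 15.1% of all 32851 windows in the table. A triple was present in windows of 3 members, Hsph1, Hspe1 and Hspd1, against 0.603% of all windows. The exception was Dnajb1, whose 2 windows held neither motif as written. The windows of Hspa1a (chr17:34972107-34972406, minus strand) and Hspa1b (chr17:34959189-34959488, minus strand) differed at 4 of 300 bases and had the same pair, starting 104 bases before the start site. The Hspe1 window (chr1:55087898-55088197, plus strand) shared 285 bases with that of the second Hspd1 start site, on the opposite strand. Its run of 3 overlapping pairs lies before the Hspe1 start site and before the second Hspd1 start site, but inside Hspd1 as counted from its first start site. The window of that first Hspd1 start site shared 4 bases with the Hspe1 window and held no pair. The Hsph1 window (chr5:149636287-149636586, minus strand) held 3 pairs, 2 of which made up a triple after the start site. These 4 windows are printed 5′ to 3′, with motif matches in capitals. A match is a run of letters and no evidence of binding.
Hspa1a: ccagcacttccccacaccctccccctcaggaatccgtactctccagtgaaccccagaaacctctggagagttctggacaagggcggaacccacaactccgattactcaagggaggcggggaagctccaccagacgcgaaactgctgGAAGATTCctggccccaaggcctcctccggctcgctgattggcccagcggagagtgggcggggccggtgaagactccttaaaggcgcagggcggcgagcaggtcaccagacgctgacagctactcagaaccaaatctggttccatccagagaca
Hspa1b: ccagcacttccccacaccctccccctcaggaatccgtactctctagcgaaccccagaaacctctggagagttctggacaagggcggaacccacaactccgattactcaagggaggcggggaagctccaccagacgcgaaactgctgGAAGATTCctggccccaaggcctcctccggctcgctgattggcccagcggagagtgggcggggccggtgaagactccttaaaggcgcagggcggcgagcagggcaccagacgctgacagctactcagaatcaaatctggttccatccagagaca
Hspe1: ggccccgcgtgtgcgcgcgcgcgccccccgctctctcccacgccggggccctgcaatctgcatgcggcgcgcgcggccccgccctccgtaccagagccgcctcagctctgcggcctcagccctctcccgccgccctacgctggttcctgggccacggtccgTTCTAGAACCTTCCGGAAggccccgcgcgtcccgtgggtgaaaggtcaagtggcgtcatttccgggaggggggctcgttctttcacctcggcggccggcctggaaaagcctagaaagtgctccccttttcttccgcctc
Hsph1: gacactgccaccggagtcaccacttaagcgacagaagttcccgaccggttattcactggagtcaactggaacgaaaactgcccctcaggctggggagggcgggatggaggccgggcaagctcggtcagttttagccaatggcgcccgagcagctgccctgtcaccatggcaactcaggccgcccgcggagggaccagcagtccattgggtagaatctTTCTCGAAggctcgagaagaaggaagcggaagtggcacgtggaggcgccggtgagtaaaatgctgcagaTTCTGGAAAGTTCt

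Library totals ranged from 16914012 to 18991235 counts. Fabp7, the gene targeted by the shRNA, had 93, 41 and 66 reads in shFabp7 libraries 1 to 3, against 484, 285 and 290 in shScr libraries 1 to 3, and its adjusted p was 0.0704 in edgeR (quasi-likelihood test) and 5.35e-13 in DESeq2. No gene of the marker lists for cell types and regions was at 0 in every library. The summed level of 7 markers of excitatory cortical neurons was 5723 to 6539 CPM (read counts scaled by the TMM-adjusted library size) in shFabp7 libraries and 3926 to 5238 CPM in shScr libraries. That of 7 hippocampal markers was 135, 110 and 135 CPM in shFabp7 libraries 1 to 3, against 272, 132 and 210 CPM in shScr libraries 1 to 3. Counts of Xist and Y-linked genes marked shFabp7 libraries 2 and 3 and shScr library 3 as female and the others as male. The 4 Y-linked genes summed to 13.6 CPM in shFabp7 library 2, against 1.92 and 1.47 CPM in the other female libraries and 205 to 210 CPM in the male ones. The labels do not state whether every library comes from a different mouse, though both sexes were read in each group, so p-values reflect the spread among these 6 libraries, part of which may be technical.

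No cytosolic or mitochondrial heat shock gene of the list differed between the shFabp7 and shScr groups beyond the spread between libraries after adjustment over all genes. The count of members past an adjusted p of 0.05 was 0 in edgeR, where 0.116% of all genes tested passed (0.0582% higher and 0.0582% lower). It was also 0 in DESeq2, where 4.28% of genes passed, and 0 in limma-voom. At an unadjusted p under 0.05 in edgeR there was 1 member, Hsph1, which was higher in shFabp7, against 16.8% of all genes tested (8.44% higher and 8.32% lower). Log2 fold changes, shFabp7 over shScr, ran from -0.19 for Hspe1 to 0.30 for Hspa1b, with a median of 0.039 beside -0.0065 for all genes tested, and 6 were above 0 and 4 below. Without shFabp7 library 1 the median of the members was -0.029 and 6 were below 0, and with the regional covariate described below it was 0.063 and 1 was below 0. The size of the change, without its sign, had a median of 0.074 for the members and 0.14 for all genes tested. The members were not matched to genes of similar level, so these medians do not show that they changed less than such genes. The groups did not overlap for 2 members, Hsph1 and Hspa8, both with all shFabp7 libraries above all shScr libraries, against 22.9% of all genes tested (11.4% higher and 11.5% lower in shFabp7). Summed over the 10 genes, the level was 4481, 4143 and 4287 CPM in shFabp7 libraries 1 to 3, against 4238, 4154 and 4405 CPM in shScr libraries 1 to 3. Together the 10 genes made up 0.403% to 0.446% of each library's counts.

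**Figure D1:**
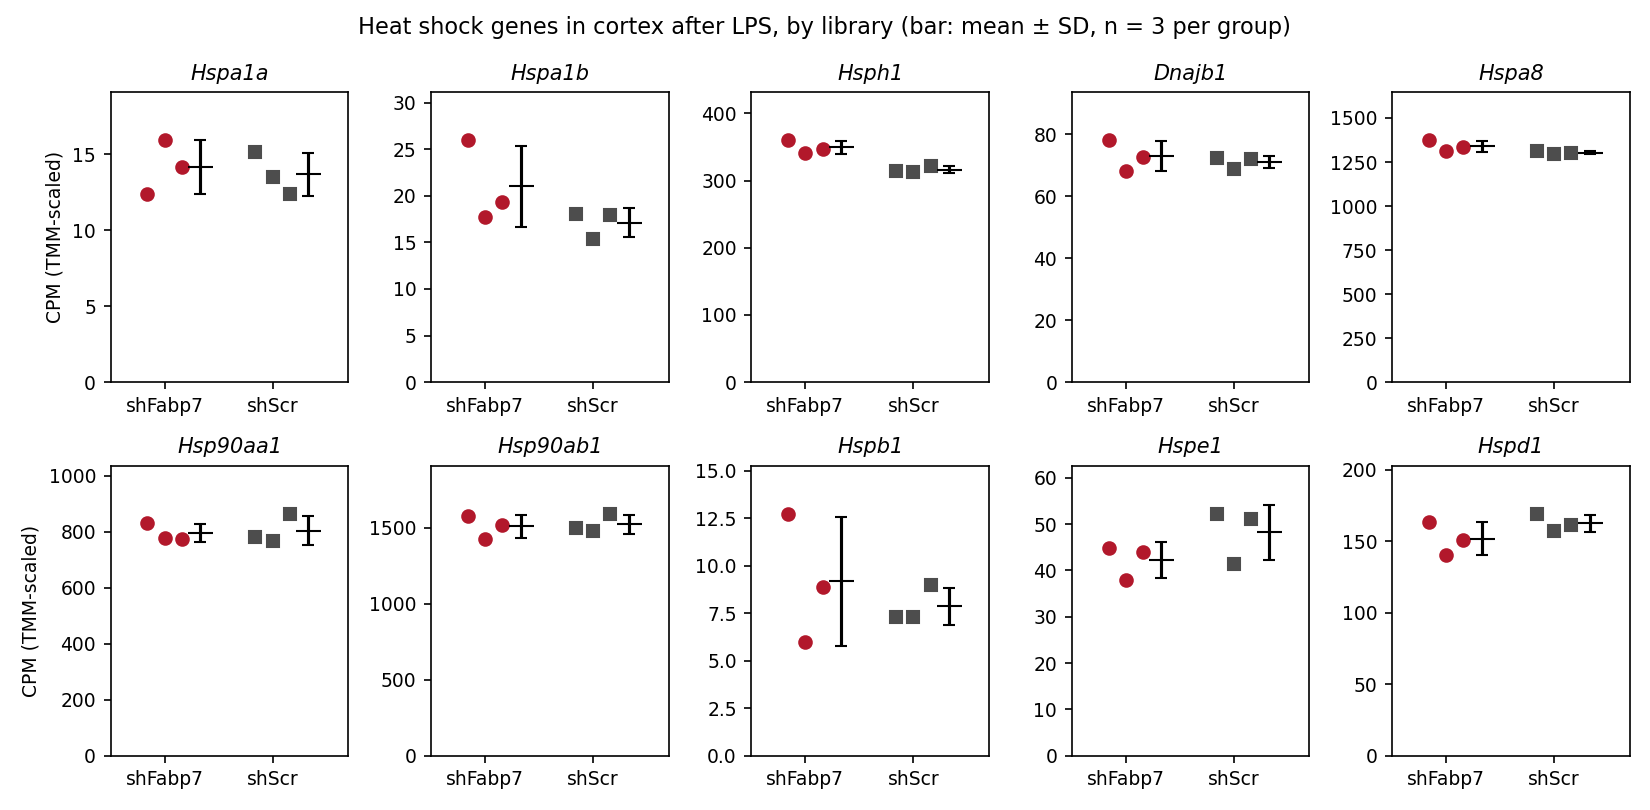
CPM after TMM scaling (y axis, from 0) of each of the 10 heat shock genes in each library, shFabp7 (red circles) and shScr (grey squares), with the mean ± SD of 3 libraries beside the points. The groups overlap for all but Hsph1 and Hspa8, and shFabp7 library 1, the leftmost red point of each panel, is the highest for 5 of the genes.

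Levels of the members, set per length of exon, spanned from Hsp90ab1 to Hspa1a. Hsp90ab1, the constitutive cytosolic Hsp90, averaged 503 ± 26.0 CPM per kb in shFabp7 and 507 ± 20.2 CPM per kb in shScr (SD, n = 3 each, here and for the next levels). Hspa8, the constitutive Hsp70 known as Hsc70, followed at 312 ± 7.30 CPM per kb in shFabp7 and 303 ± 1.85 in shScr. Hsp90aa1, the inducible Hsp90, had 202 ± 8.14 CPM per kb in shFabp7 and 205 ± 13.3 in shScr. After these came Hspd1, Hsph1, Hspe1 and Dnajb1, with mean levels over all 6 libraries of 59.4, 45.8, 30.7 and 22.5 CPM per kb. The lowest were Hspb1 at 8.27, Hspa1b at 6.80 and Hspa1a at 4.69 CPM per kb over all 6 libraries. Each neighbour in this order was separate from the next in all libraries, except Hspb1 and Hspa1b, whose ranges overlapped. The order was the same by TPM, as it must be within a library, where both measures divide counts by the same lengths. Stretches of 50 bases that also occur in transcripts of other genes were unequally frequent. They made up 3.44% for Hsp90ab1, 39.4% for Hspa8, 47.5% for Hsp90aa1, 66.3% for Hspa1a and 0% for Hsph1. How reads of such stretches were counted is not given, so the order between genes is uncertain even where all libraries were separate.

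**Figure D2:**
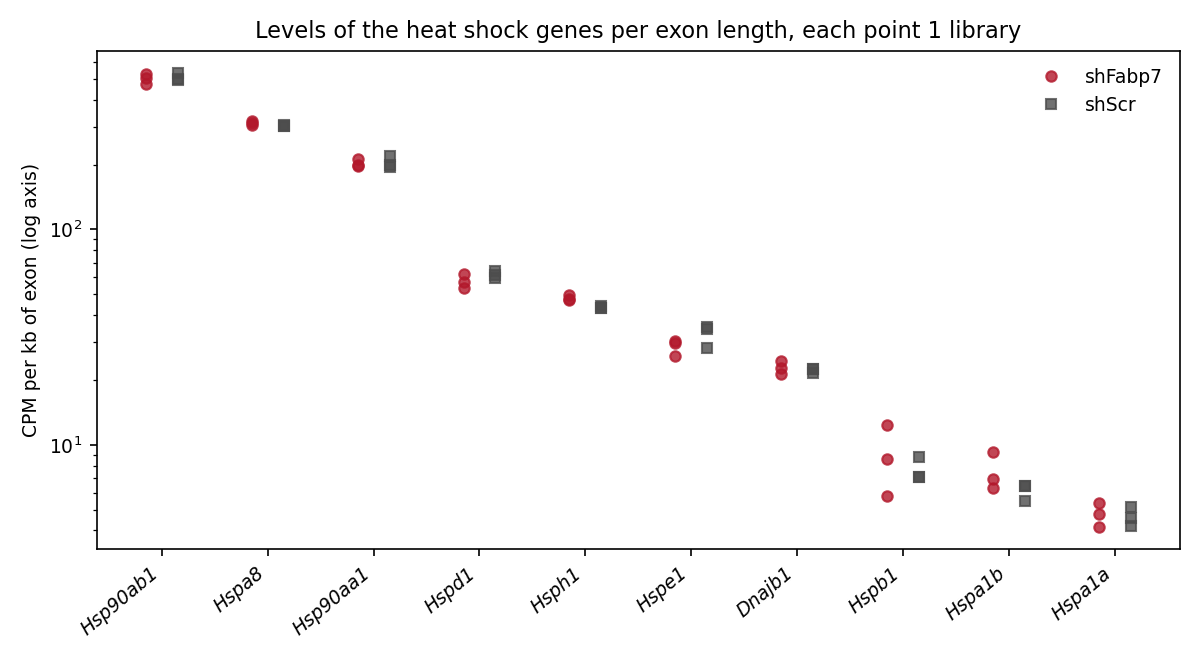
Levels in CPM per kb of exon (y axis, log scale) of the 10 genes, ordered by their mean, with 1 point per library and shFabp7 (red circles) left of shScr (grey squares). Hsp90ab1, Hspa8 and Hsp90aa1 lie between 195 and 530 CPM per kb, and Hspb1, Hspa1b and Hspa1a between 4.17 and 12.4.

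Hspa1a and Hspa1b encode nearly the same inducible Hsp70 protein, the classical heat shock protein that is low in unstressed brain. Their genes lie next to each other on chromosome 17, Hspa1b from 34956436 to 34959238 and Hspa1a from 34969190 to 34972156, both on the minus strand (ENSMUSG00000090877 and ENSMUSG00000091971). Hspa1a had 12.4, 15.9 and 14.2 CPM in shFabp7 libraries 1 to 3, against 15.2, 13.5 and 12.4 CPM in shScr libraries 1 to 3. The groups overlapped, and shFabp7 library 1 and shScr library 3 were the lowest, at almost the same level. On the log2 scale the difference for Hspa1a was 0.047, with a standard error of 0.13 and an adjusted p of 0.889 in edgeR. Hspa1b had 25.9, 17.7 and 19.4 CPM in shFabp7 libraries 1 to 3, against 18.1, 15.3 and 18.0 CPM in shScr libraries 1 to 3. For this gene shFabp7 library 1 was the highest of the 6, and shFabp7 library 2 lay within the shScr range. For Hspa1b the log2 fold change came to 0.30, with a standard error of 0.15, a 95% interval of -0.033 to 0.62 and an adjusted p of 0.339. Without shFabp7 library 1 it was 0.12.

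Of the 50-base stretches in Hspa1a transcripts, 58.8% also occur in Hspa1b transcripts, so reads of the pair are hard to assign and their separate values are uncertain. The sources used here do not give how reads that fit several genes were counted. Hspa1a took 32.3%, 47.4% and 42.2% of the reads of the pair in shFabp7 libraries 1 to 3, against 45.7%, 46.9% and 40.8% in shScr libraries 1 to 3. The exact binomial 95% interval of the share in shFabp7 library 1, 28.7% to 36.1%, lay below that of each other library, and these intervals cover counting error only. Summed, the pair had 38.3, 33.6 and 33.5 CPM in shFabp7 libraries 1 to 3, against 33.3, 28.8 and 30.3 CPM in shScr libraries 1 to 3. All 3 shFabp7 sums were above all 3 shScr sums, by a small margin. Counted as 1 feature, the pair had a log2 fold change of 0.19 and an adjusted p of 0.309 in edgeR.

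**Figure D3:**
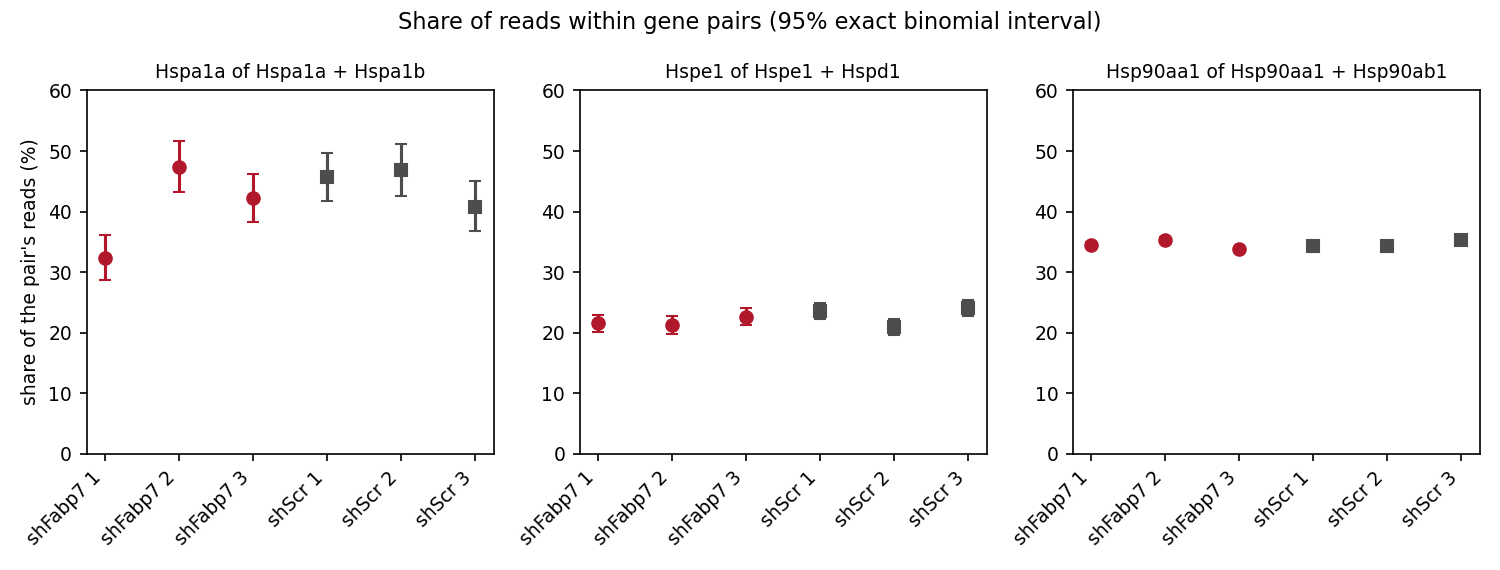
Share of the reads of a gene pair (y axis, percent) that fell to the gene named first, in each library, with 95% exact binomial intervals, shFabp7 in red and shScr in grey. The Hspa1a share of 32.3% in shFabp7 library 1 stands below the other 5 libraries, at 40.8% to 47.4%, while the Hspe1 share runs from 20.9% to 24.0% and the Hsp90aa1 share from 33.7% to 35.4%.

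Hsph1 and Dnajb1 encode partners of Hsp70. Hsph1, an Hsp110 protein that exchanges the nucleotide of Hsp70 and is encoded on chromosome 5 from 149614287 to 149636376 on the minus strand (ENSMUSG00000029657), had 360, 342 and 346 CPM in shFabp7 libraries 1 to 3, against 314, 313 and 322 CPM in shScr libraries 1 to 3. The lowest shFabp7 library lay above the highest shScr library. The means were 349 ± 9.48 CPM in shFabp7 and 316 ± 4.94 CPM in shScr (SD, n = 3 each). On the log2 scale the difference was 0.14, with a standard error of 0.060, or 1.11-fold with a 95% interval of 1.01 to 1.21. The unadjusted p of 0.0370 became 0.268 after adjustment over all genes in edgeR. Of the genes tested, not matched for level, 48.8% had a larger change in size. Over the 17 alternative settings the log2 value stayed between 0.12 and 0.16, and no 50-base stretch of Hsph1 transcripts occurs in transcripts of another gene. Dnajb1, the J-domain Hsp40 that hands unfolded clients to Hsp70 and lies on chromosome 8 from 83608193 to 83612653 (ENSMUSG00000005483), had 78.1, 68.3 and 72.7 CPM in shFabp7 libraries 1 to 3, against 72.4, 68.9 and 72.2 CPM in shScr libraries 1 to 3. Its shFabp7 values lay on both sides of the shScr values. The log2 fold change of 0.037 had a 95% interval of -0.11 to 0.19 and an adjusted p of 0.819.

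Hspa8, the constitutive Hsp70 that also strips clathrin from vesicles at synapses, lies on chromosome 9 from 40800984 to 40810087 (ENSMUSG00000015656). It had 1373, 1311 and 1336 CPM in shFabp7 libraries 1 to 3, against 1310, 1294 and 1304 CPM in shScr libraries 1 to 3. The groups did not overlap, but the lowest shFabp7 and the highest shScr library were almost level. The log2 difference of 0.041 had a standard error of 0.059, a 95% interval of -0.092 to 0.17 and an adjusted p of 0.773 in edgeR. Of the 50-base stretches of Hspa8 transcripts, 34.6% also occur in its pseudogene Gm15459, so its reads may be shared out between them.

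The Hsp90 genes showed the smallest changes of the list. Hsp90aa1, on chromosome 12 from 110690605 to 110702728 (ENSMUSG00000021270), had 832, 779 and 774 CPM in shFabp7 libraries 1 to 3, against 781, 768 and 865 CPM in shScr libraries 1 to 3. Hsp90ab1, on chromosome 17 from 45567775 to 45573271 (ENSMUSG00000023944), had 1579, 1425 and 1520 CPM in shFabp7 libraries 1 to 3, against 1499, 1475 and 1590 CPM in shScr libraries 1 to 3. Both genes had overlapping groups, with shScr library 3 the highest of all. Log2 fold changes were -0.017 with a 95% interval of -0.17 to 0.14 for Hsp90aa1 and -0.013 with a 95% interval of -0.16 to 0.14 for Hsp90ab1, and the adjusted p-values were 0.931 and 0.947. The sign of both turned to positive under 4 of the 17 alternative settings. Hsp90aa1 shares 41.8% of its 50-base stretches with Gm12346, and its separate value is uncertain.

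Hspb1 encodes a small heat shock protein, called Hsp25 in mouse, that binds unfolded proteins without ATP and is known from reactive astrocytes and blood vessels. Its gene lies on chromosome 5 from 135887919 to 135889563 (ENSMUSG00000004951). It had 12.7, 5.96 and 8.86 CPM in shFabp7 libraries 1 to 3, against 7.29, 7.29 and 9.01 CPM in shScr libraries 1 to 3. The highest and the lowest library of the 6 were both shFabp7. Hspb1 varied most among the members, with a coefficient of variation of 37.0% in shFabp7 and 12.6% in shScr, against 2.34% in shFabp7 and 0.610% in shScr for Hspa8. Its log2 fold change was 0.22 with a 95% interval of -0.36 to 0.81 and an adjusted p of 0.702, and it was -0.080 without shFabp7 library 1. Its pseudogene Hsp25-ps1 holds 48.8% of the 50-base stretches of Hspb1 transcripts. Beside it, 5 meningeal fibroblast markers summed to 66.8, 46.3 and 46.2 CPM in shFabp7 libraries 1 to 3, against 71.2, 48.8 and 82.8 CPM in shScr libraries 1 to 3. The 6 endothelial markers summed to 247 to 252 CPM in shFabp7 libraries and 211 to 267 CPM in shScr libraries. The 6 pericyte and smooth muscle markers summed to 187, 191 and 180 CPM in shFabp7 libraries 1 to 3, against 146, 171 and 167 CPM in shScr libraries 1 to 3, without overlap and with 5 of 6 above 0. No gene of these lists was at 0 in every library, and the part of these cell types in the Hspb1 values was not tested.

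The mitochondrial pair Hspe1 and Hspd1, which encode Hsp10 and Hsp60, gave negative log2 fold changes. The genes lie head to head on chromosome 1, Hspd1 from 55077835 to 55088243 on the minus strand and Hspe1 from 55088132 to 55091307 on the plus strand (ENSMUSG00000025980 and ENSMUSG00000073676), and their exons overlap by 112 bases. Hspe1 had 44.8, 37.9 and 44.0 CPM in shFabp7 libraries 1 to 3, against 52.2, 41.4 and 51.1 CPM in shScr libraries 1 to 3. Hspd1 had 163, 141 and 151 CPM in shFabp7 libraries 1 to 3, against 169, 157 and 162 CPM in shScr libraries 1 to 3. In both genes library 2 was the lowest of its group, shScr library 2 lay within the shFabp7 range and shScr library 1 was the highest of the 6. For Hspd1, shScr library 3 lay within that range too.

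Hspe1 had a log2 fold change of -0.19, with a standard error of 0.10, a 95% interval of -0.42 to 0.042 and an adjusted p of 0.386 in edgeR. Hspd1 had one of -0.10, with a standard error of 0.069, a 95% interval of -0.26 to 0.053 and an adjusted p of 0.491. Hippocampal markers were likewise lowest in library 2 of each group and highest in shScr library 1, and 6 of these 7 markers had a log2 fold change below 0. Striatal markers were highest in shFabp7 library 3, at a sum of 1435 CPM, against 1062 CPM in shScr library 1. A score for regional make-up took the average log2 CPM of excitatory cortical neuron markers from that of hippocampal, striatal, thalamic and choroid plexus markers. It was -4.475, -4.914 and -4.151 in shFabp7 libraries 1 to 3, against -2.818, -4.448 and -3.443 in shScr libraries 1 to 3. The score ran partly with group, so region and group cannot be fully told apart. With this score as a covariate, the log2 value of Hspe1 was 0.029 and that of Hspd1 -0.028. Without shScr libraries 1 and 3, a comparison of 1 shScr library with 3 that assumes the lone library to vary like the others, the values were 0.029 and -0.053. The libraries left out had the highest Hspe1 levels of all, so a smaller Hspe1 difference followed from that choice. The part of regional make-up in the Hspe1 and Hspd1 values was not tested. The Hspe1 share of the reads of the pair was 21.5%, 21.2% and 22.6% in shFabp7 libraries 1 to 3, against 23.6%, 20.9% and 24.0% in shScr libraries 1 to 3. Of the 50-base stretches of Hspd1 transcripts, 42.1% occur in transcripts of other genes, the largest share (38.0%) in the processed pseudogene Hspd1-ps3. For Hspe1 it was 22.8%, with the largest share (17.9%) in AC117239.2, which is annotated as protein-coding. The search covered both strands.

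**Figure D4:**
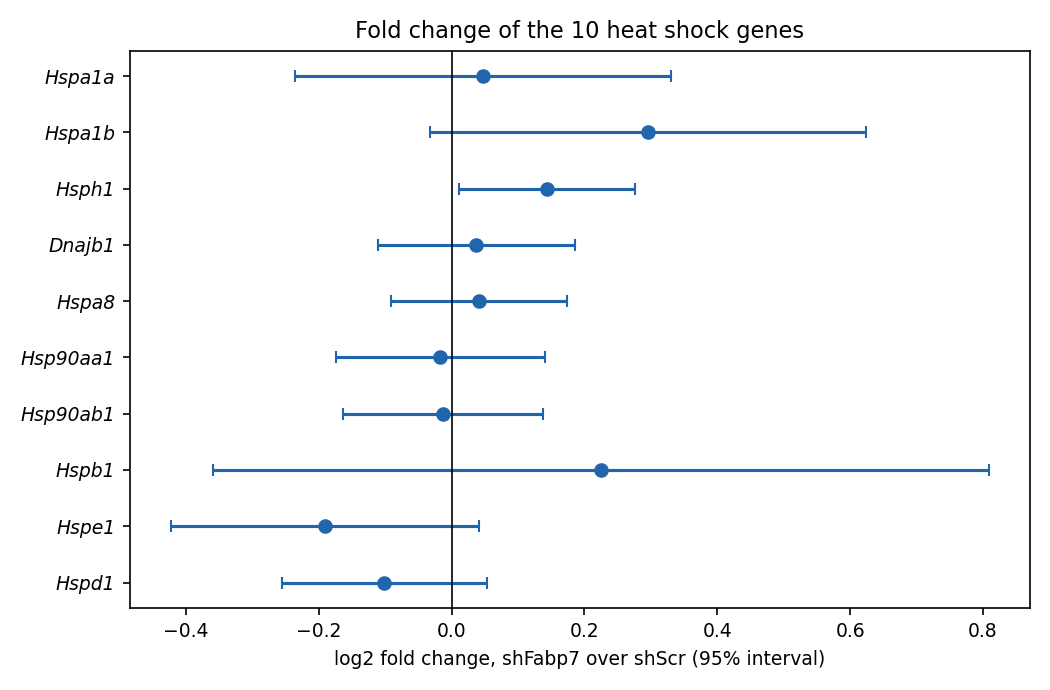
Log2 fold change of each gene, shFabp7 over shScr (x axis), with its 95% interval from edgeR, not adjusted for the number of genes. Intervals of 9 genes include 0 and that of Hsph1 runs from 0.011 to 0.28, while Hspb1 has the widest, from -0.36 to 0.81.

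For Hspa8, Hsp90aa1, Hsp90ab1 and Dnajb1 the 95% interval of the fold, shFabp7 over shScr, lay within 0.886 to 1.14. For Hspa1a it was 0.849 to 1.26, for Hspa1b 0.977 to 1.54 and for Hspb1 0.779 to 1.75. The members differed among themselves in their course across libraries. On log2 CPM centred on the mean of the 6 libraries, shFabp7 library 1 was at 0.45 for Hspa1b, 0.59 for Hspb1 and 0.12 for both Hsph1 and Dnajb1, but at -0.16 for Hspa1a and -0.0037 for Hspe1. Activity-induced genes (12, among them Fos and Egr1) summed to 608, 556 and 574 CPM in shFabp7 libraries 1 to 3, against 539, 1156 and 796 CPM in shScr libraries 1 to 3. In shScr library 2, where that sum was highest, Hspa1b, Hsph1, Hspa8 and Hsp90aa1 were at their lowest of the 6 libraries. Of the other members, Dnajb1, Hsp90ab1, Hspb1, Hspe1 and Hspd1 were lowest in shFabp7 library 2, and Hspa1a in shFabp7 library 1. The part of the activity-induced genes in these values was not tested.

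The 9 lists of the wider chaperone system, with 79 genes in all, all of them tested, gave 0 genes past the threshold in edgeR and 10 at an unadjusted p under 0.05, 6 above 0 and 4 below, where 0.116% and 16.8% of all genes tested did so. Their median log2 fold change was 0.0003. In DESeq2, 1 gene was higher, Cryab, and 1 lower, Gadd45g, where 4.28% of all genes passed. The medians of 5 lists took both signs over the alternative settings. Among these were the heat shock factors, the other Hsp70 and Hsp110 genes and the Hsp70 regulators. The Hsp90 co-chaperones and the genes listed as other targets of heat shock factor 1 were the rest. Of the genes named next, Dnaja4, Bag5, Fkbp5, Unc45a, Hspb6, Grpel2 and Gadd45g were chosen after their values were seen, for an unadjusted p under 0.05. Of these, Bag5 passed the threshold in 2 of the 17 alternative settings, Fkbp5 in 1 and Gadd45g in 4.

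Among regulators, the heat shock factor list had a median of 0.0009 with 3 of 5 genes above 0. Hsf1, the main heat shock factor, had 42.0, 40.3 and 45.1 CPM in shFabp7 libraries 1 to 3, against 39.3, 45.2 and 42.2 CPM in shScr libraries 1 to 3, a log2 fold change of 0.0075 whose sign turned under some settings. Hsbp1, a small protein that binds heat shock factor 1, had -0.056. Of 7 other cytosolic Hsp70 and Hsp110 genes, 3 were above 0, with Hspa4 at -0.0054 and Hspa12a at 0.018, both with a sign that turned with the setting. J-domain genes had 7 of 9 above 0 and a median of 0.037. Dnaja2 had 0.12, Dnajc5, the cysteine string protein of synaptic vesicles, 0.047, and Dnaja4 0.19 with an adjusted p of 0.218 in edgeR.

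Of the 9 Hsp70 exchange factors and regulators 7 were above 0. Bag1 had 0.0079, with a sign that turned under 4 settings, and St13 0.050. Bag5, a BAG-domain exchange factor of Hsp70, had 59.1, 57.6 and 60.8 CPM in shFabp7 libraries 1 to 3, against 47.8, 51.5 and 46.4 CPM in shScr libraries 1 to 3. The groups did not overlap, and the log2 fold change of 0.28 had a standard error of 0.067 and an adjusted p of 0.101 in edgeR. Hsp90 co-chaperones had 7 of 12 above 0 and a median of 0.027, with Stip1, which links Hsp70 to Hsp90, at 0.054 and Ahsa1, which speeds the ATPase of Hsp90, at 0.16. Fkbp5, an immunophilin of steroid receptor complexes that glucocorticoids induce, had 0.27 and an adjusted p of 0.273, and Unc45a, a myosin chaperone, -0.19 and an adjusted p of 0.292.

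The small heat shock proteins other than Hspb1 had the highest median of the 9 lists, 0.41, with 4 of 7 above 0. This median is the value of Cryab itself. Of the others, Hspb2, Hspb3 and Hspb7 had few reads, at most 13, 41 and 25 in a library. The median of the list was 0.080 with the regional covariate and 0.11 when shScr libraries 1 and 3 were left out. Cryab, alpha B-crystallin, which is abundant in oligodendrocytes and astrocytes, had 63.4, 65.1 and 64.0 CPM in shFabp7 libraries 1 to 3, against 41.7, 51.8 and 51.2 CPM in shScr libraries 1 to 3. All shFabp7 values lay above all shScr values and were close together. Its log2 difference was 0.41, with a standard error of 0.086, an adjusted p of 0.0833 in edgeR and 0.00950 in DESeq2. Over the 17 alternatives the value ran from 0.28 to 0.47, and 5 of them passed the threshold. Beside it, 6 oligodendrocyte markers summed to 3885, 4415 and 4657 CPM in shFabp7 libraries 1 to 3, against 3542, 4569 and 3866 CPM in shScr libraries 1 to 3, with 4 of 6 above 0. The 8 astrocyte markers summed to 4028 to 4386 CPM in shFabp7 libraries and 3803 to 4297 CPM in shScr libraries, with 3 of 8 above 0. No gene of either list was at 0 in every library, and their part in the Cryab value was not tested. Hspb6 had 5.98, 7.05 and 5.39 CPM in shFabp7 libraries 1 to 3, against 5.11, 4.20 and 3.60 CPM in shScr libraries 1 to 3, a log2 fold change of 0.51 with an adjusted p of 0.222. Smooth muscle also expresses Hspb6, and the pericyte and smooth muscle markers given above averaged 186 ± 5.39 CPM in shFabp7 and 161 ± 13.3 CPM in shScr (SD, n = 3 each). Their part in the Hspb6 value was not tested. Hspb8, the partner of Bag3, had -0.14, with a sign that turned under 2 settings.

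All 8 genes of the cytosolic chaperonin, a ring that folds actin and tubulin, had log2 fold changes below 0, with a median of -0.12 and 0 past the threshold. Cct2 had 123, 108 and 116 CPM in shFabp7 libraries 1 to 3, against 130, 125 and 129 CPM in shScr libraries 1 to 3, a log2 fold change of -0.15 with an adjusted p of 0.288. Cct8 had -0.14. With the regional covariate 5 of the 8 were below 0 and the median was -0.015. When shScr libraries 1 and 3 were left out, 5 were below 0 and the median was -0.028. In each of the 15 other alternatives all 8 were below 0. Mitochondrial chaperones and proteases other than the Hspe1 and Hspd1 pair had 9 of 14 below 0 and a median of -0.024. Hspa9, the mitochondrial Hsp70, had 187, 191 and 196 CPM in shFabp7 libraries 1 to 3, against 210, 208 and 204 CPM in shScr libraries 1 to 3. The groups did not overlap, and the log2 fold change was -0.12 with an adjusted p of 0.314. The protease gene Lonp1 had -0.095, and Grpel2, a nucleotide exchange factor of mitochondrial Hsp70, -0.22 with an adjusted p of 0.287.

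Of 8 other genes listed by name as inducible by heat shock factor 1, 4 were above 0 and 4 below. Whether heat shock factor 1 acts on these genes in cortex was not measured. Ubb, a polyubiquitin gene, had -0.068 and the metallothionein gene Mt1 0.036, and both signs turned with the setting. Gadd45g, a stress and activity response gene, had 8.91, 6.93 and 8.86 CPM in shFabp7 libraries 1 to 3, against 13.8, 13.6 and 12.7 CPM in shScr libraries 1 to 3. All shFabp7 values lay below all shScr values, with a log2 difference of -0.70, a standard error of 0.13 and an adjusted p of 0.0671 in edgeR and 0.00354 in DESeq2. The activity-induced genes, whose sums are given above, had 0 of 12 log2 fold changes above 0. By library the courses differed, as shScr library 1 had the lowest of those sums, 539 CPM, and the highest Gadd45g level, 13.8 CPM. The part of the activity-induced genes in the Gadd45g value was not tested.

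**Figure D5:**
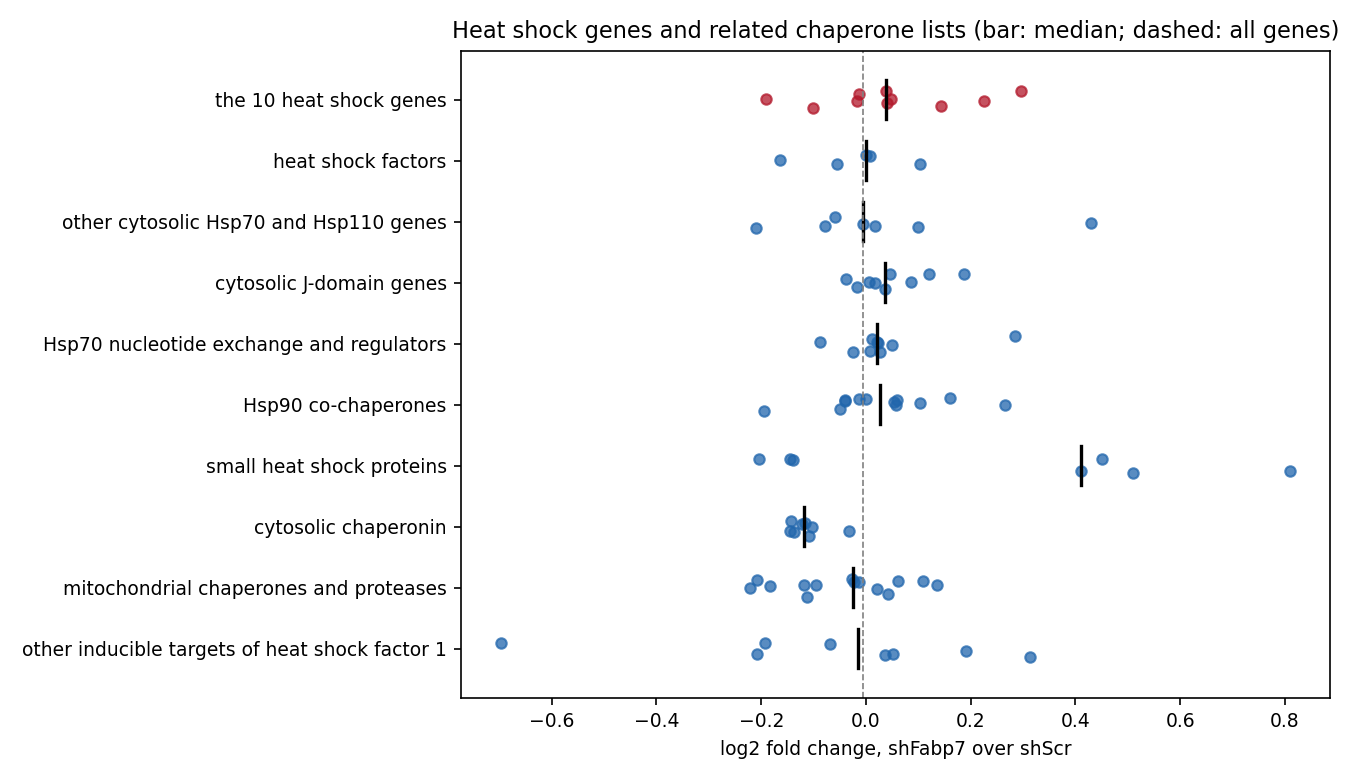
Log2 fold change, shFabp7 over shScr (x axis), of the 10 heat shock genes (red) and of the genes of 9 related lists (blue), with the median of each list as a black bar and that of all genes tested as a dashed line. The 10 genes lie between -0.19 and 0.30. The small heat shock proteins have the highest median at 0.41, which is the value of Cryab. The median of that list was 0.080 with the regional covariate and 0.11 without shScr libraries 1 and 3. The genes of the cytosolic chaperonin all lie below 0, which held in 15 of 17 alternative settings.

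Genes outside the list with the most similar course over the 6 libraries were sought by the distance from the mean centred log2 CPM of Hspa1a, Hspa1b, Hsph1 and Dnajb1, among 10494 genes with a mean of at least 10 CPM. The 5 nearest were Zfp607b, Asah1, Tmem260, D3Ertd254e and Rabif, at root mean square distances of 0.022 to 0.031 on the log2 scale. The median distance of the candidates was 0.13, and the profile itself had a root mean square of only 0.079, so genes that varied little were favoured. Their log2 fold changes ran from 0.087 for Rabif to 0.15 for Tmem260, and none passed the threshold. Small positive values follow from the choice by distance, since the profile itself was higher in shFabp7 libraries, and are no separate result.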

How the data were processed

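The authors deposited raw read counts per gene, not normalized, in a featureCounts layout per the file headers, from libraries that the labels describe as stranded mRNA preparations of 0.5 µg RNA. Per the submitters' processing notes, the tools were Trimmomatic 0.36, STAR 2.5.2b, Subread 1.5.2 and DESeq2, with GRCm39 as a build and no role or order stated. Positions were those of GENCODE M21 (GRCm38) for 91.4% of 49056 shared IDs and for all 10 members, so coordinates are given on GRCm38. No source used here gives the strand setting, so reads of Hspe1 and Hspd1 in their overlap cannot be told apart. Hspa1a shares 564 bases, 19.0% of its exon bases, with the protein-coding gene Gm20481 on the opposite strand. Gm20481 had 0 reads in each library, and how reads in that overlap were counted is not known.

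Counts were filtered (filterByExpr), scaled by TMM and tested in edgeR 4.0.16 (R 4.3.3; robust quasi-likelihood, group as the only term, two-sided). P-values were adjusted by Benjamini-Hochberg over all genes, with a threshold of 0.05. Genes without a symbol took 0.0991% to 0.114% of counts. CPM per kb uses the deposited exon lengths, and centred values are log2(CPM + 0.5). An exact permutation test of 3 against 3 cannot go below p = 0.1 and was not used. Alternatives were DESeq2 1.42.0, limma-voom (limma 3.58.1), other scaling and filters, sex and regional covariates, a replicate block, libraries left out, and Hspa1a and Hspa1b summed. Scripts were tested on simulated counts, and no pair of libraries agreed within counting noise.

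The members and lists were chosen with earlier results of these data known. The genes named are the members, Fabp7, up to 4 genes of each list past the threshold or else its 2 highest per kb, the 5 genes of most similar course and, chosen after their values were seen, list genes with an unadjusted p under 0.05.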

Additional observations from a re-analysis of the deposited data

How the results depend on the processing

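The count of members past the threshold was 0 in edgeR and 0 under each of the 17 alternatives, the smallest adjusted p of a member being 0.0994, for Hspe1 without shScr library 2. The count over all genes, 20, was 679 in DESeq2, 109 in limma-voom, 1617 with no filter, 629 with the replicate block, 7 with sex and 11 with the regional score as a covariate, 120 without shScr libraries 1 and 3, and between 0 and 900 with 1 library left out. Whether replicate numbers pair the libraries could not be settled with so few libraries a group. Correlations of same-numbered deviations were 0.0960, 0.187 and 0.0550, and 3 of 6 libraries correlated best with their own number. The block moved no member across the threshold.

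Signs changed for values near 0 and also for Hspe1, Hspb1 and Hspb8, whose values were further from it. With the regional score Hsp90aa1 was 0.0065, Hsp90ab1 0.028, Hspe1 0.029, Hsbp1 0.054, Hsf1 -0.048, Bag1 -0.018 and Hspb8 0.080. Without shScr libraries 1 and 3, Hsp90aa1 was 0.049, Hsp90ab1 0.031, Hspe1 0.029, Hsbp1 0.098, Hsf1 -0.090, Dnajc5 -0.0006, Hspb8 0.11 and Ubb 0.0002. Hspa12a was -0.0032 and Bag1 -0.0067 in limma-voom, and Hspa12a -0.018 and Mt1 -0.045 with sex. With 1 library left out, ranges that crossed 0 were -0.045 to 0.14 for Hspa1a, -0.012 to 0.084 for Dnajb1, -0.050 to 0.038 for Hsp90aa1, -0.046 to 0.028 for Hsp90ab1, -0.080 to 0.46 for Hspb1, -0.13 to 0.018 for Hsbp1, -0.041 to 0.060 for Hsf1, -0.019 to 0.012 for Hspa4, -0.051 to 0.083 for Hspa12a, -0.018 to 0.037 for Bag1, -0.015 to 0.13 for Stip1 and -0.029 to 0.15 for Mt1. The cause was not tested. Hspb1, Hspa1a and Hspa1b, with 98 to 434 reads a library, carry the widest intervals.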
